A study of Mus musculus with 15 samples.

Results

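PLX 3x CD0 and PLX 1x are 2 treated groups of wildtype mouse forebrain that were both low in macrophage transcripts, and they were compared here for what else differed between them. The 3 libraries named PLX3X_CD0 were set against the 3 named PLX1X, 6 of the 15 libraries of the series, and each gene identifier was used once. The other libraries came from untreated forebrain (NT), from a group whose titles and treatment label say only PLX and whose library names read PLX3X_CD30 (called PLX 3x CD30 here), and from a group titled IR-BMT with the treatment IR, with 3 libraries each. All mice were wildtype. What PLX, CD0, CD30 and IR-BMT stand for is not written in the labels, which also give no sex, age, dose or time of collection. They do not say either whether each library came from its own animal, so the p-values below measure the spread between libraries, which may be technical.

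Some compounds whose names begin with PLX are known as inhibitors of the colony stimulating factor 1 receptor, the receptor on which microglia, the resident macrophages of the brain, depend for survival. The circadian clock runs in most brain cells as a feedback loop: the CLOCK (or NPAS2) and ARNTL proteins activate genes through E-box sequences, and among those genes are the period and cryptochrome repressors and the nuclear receptors NR1D1 and NR1D2, which in turn repress Arntl and Npas2 through ROR elements. Type IV collagen and laminins form the basement membrane around brain vessels, and endoplasmic reticulum chaperones such as HSPA5 fold secreted and membrane proteins.

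Total counts in the 6 libraries ran from 41397164 to 54801136. Levels are given as CPM, counts scaled to library size, after TMM normalisation, and fold changes are log2 values of PLX 3x CD0 over PLX 1x with their standard error, from edgeR's quasi-likelihood test on all 15 libraries with Benjamini-Hochberg adjustment over 21780 genes. A gene passed the test at an adjusted p under 0.05. In all, 536 genes passed, which is 2.46% of those tested. Of these, 390 were higher in PLX 3x CD0 (1.79%) and 146 were lower (0.67%). Only 19 of the higher genes (0.0872%) and 15 of the lower (0.0689%) changed at least 2-fold, and the median log2 fold change over all genes tested was 0.0067. All 3 PLX 3x CD0 libraries lay above all 3 PLX 1x libraries in 13.4% of genes and below them in 11.4%. The genes named below as largest rises or falls were chosen among those without overlap, so for them it was set by the choice. Among them are Siglech, Cd53, Ciart, Per1, Per2, Dbp, Nr4a3, Egr1, Col4a2, Tor4a and Crocc.

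The excess of higher calls moved with transcript length. The 390 higher genes had a median longest annotated transcript of 6618 bases, against 3168 bases in the 146 lower genes and 2779 bases in all tested genes. With the genes split by length into 4 bins of nearly equal number, in the bin of the longest transcripts 5.67% were higher and 0.828% lower. In the shortest bin these shares were 0.202% and 0.221%. Relative to the mean of the 6 libraries, the longest bin stood below the shortest in every PLX 1x library, by log2 differences of -0.061, -0.083 and -0.029, and above it in every PLX 3x CD0 library, by 0.029, 0.042 and 0.058. When a trend of level on transcript length and GC content was fitted in each library and entered as an offset (the length and GC offset below), 103 genes were higher (0.474%) and 180 lower (0.828%) of 21748, and 203 of the 536 calls remained in the same direction. Of the genes named below, the offset removed the calls of Acaca, Atf4, Avp, Bhlhe40, Cdh24, Clock, Col5a3, Coq10b, Cspg4, Fasn, Lama5, Lss, Oprd1, Sgk1, Slc12a5, Steap4, Unc13a, Xbp1 and Zgrf1.

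**Figure D1:**
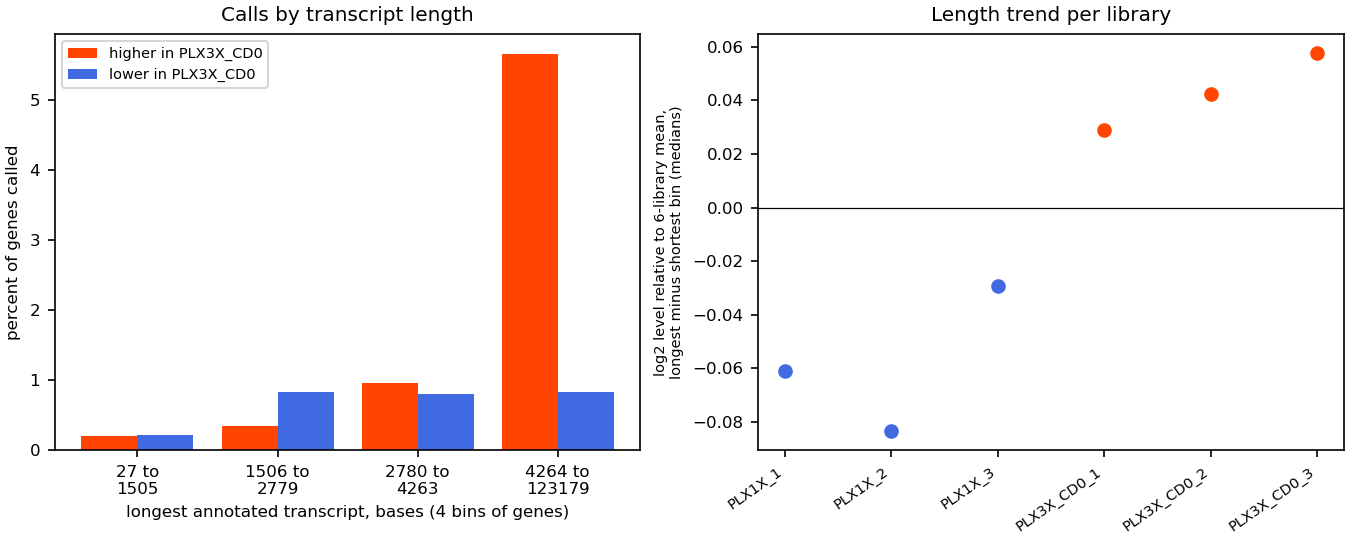
Left, percent of genes called higher (orange) or lower (blue) in PLX3X_CD0 in 4 bins of genes by the length of their longest annotated transcript in bases; right, for each of the 6 libraries, the median log2 level of the longest bin minus that of the shortest, relative to the 6-library mean. Higher calls reach 5.67% in the longest bin, and the PLX1X libraries (blue) all lie below 0 while the PLX3X_CD0 libraries (orange) all lie above it.

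Single libraries weighed on the number of calls. Leaving out 1 of the 6 libraries left 150 calls without PLX 1x replicate 2, 242 without PLX 1x replicate 1, 255 without PLX 1x replicate 3, 231 without PLX 3x CD0 replicate 1, 289 without PLX 3x CD0 replicate 2 and 272 without PLX 3x CD0 replicate 3. A pair of PLX 3x CD0 libraries also stood apart in genes of single brain regions or tissues. In replicate 1 the 14 choroid plexus genes summed to 3560 CPM, against 346 to 396 CPM in the other 5 libraries compared. One IR-BMT library also held more of these genes, at 1298 CPM. In replicate 2 the 10 olfactory bulb markers summed to 1176 CPM, against 588 to 770 CPM in the other 5. Replicate 2 also had the highest sum of 27 interferon response genes, 236 CPM against 142 to 167 CPM. None of the members of these 3 lists passed the test by edgeR, where 7 choroid plexus, 0 olfactory bulb and 4 interferon genes had an unadjusted p under 0.05, and DESeq2 called 1 interferon gene and none of the others. Without the filter on low counts, edgeR called 13, 7 and 4 of them higher. That setting called 1186 genes in all and DESeq2 1065, against 536 in the fit above. Their median log2 fold changes of 2.40, 0.82 and 0.42 were -0.19 for choroid plexus without replicate 1, and -0.08 for olfactory bulb and 0.09 for interferon without replicate 2.

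Macrophage genes were low on both sides. Csf1r, the receptor itself, stood at 8.91, 13.6 and 4.53 CPM in PLX 1x and 5.37, 10.6 and 3.58 CPM in PLX 3x CD0, against 146 to 179.6 CPM in untreated forebrain. The groups overlapped and the difference did not pass the test (log2 fold change -0.47 ± 0.400, adjusted p = 0.637). P2ry12, a purinergic receptor of microglia, was at 1.74, 2.84 and 1.48 CPM in PLX 1x and 1.62, 2.58 and 1.34 CPM in PLX 3x CD0 (log2 fold change -0.13 ± 0.245, adjusted p = 0.857). Aif1 and C1qa, further macrophage markers, were at -0.19 and -0.33 on the log2 scale, Tmem119 at -0.55 and Cx3cr1 at -0.97 (adjusted p = 0.855, 0.831, 0.332 and 0.267). Of 17 genes that microglia share with other macrophages, none passed by edgeR or DESeq2, and 2 had an unadjusted p under 0.05; their median log2 fold change was -0.60, and 16 of the 17 were negative. That median was -1.05 without PLX 3x CD0 replicate 2, -0.26 without PLX 3x CD0 replicate 3, -0.35 without PLX 3x CD0 replicate 1 and -0.12 without PLX 1x replicate 2. Without the filter on low counts, a setting with 1186 calls in all, edgeR called 6 of the 17 lower. The summed level of the 17 was 50.6, 78.5 and 28.7 CPM in PLX 1x and 30.5, 57.7 and 23.3 CPM in PLX 3x CD0, so the ranges overlapped. Of 9 genes of border-associated macrophages none passed by edgeR or DESeq2, and 7 were positive. Their median log2 fold change was 0.35, and 0.02 without PLX 3x CD0 replicate 2. These 9 summed to 4.38 to 5.67 CPM in PLX 1x, 5.02 to 5.80 CPM in PLX 3x CD0 and 22.0 to 35.8 CPM in untreated forebrain. In bulk tissue, fewer cells and less RNA per cell cannot be told apart.

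A pair of genes of the macrophage lineage did pass. Siglech, a microglial sialic acid-binding lectin, fell from 1.06, 1.46 and 0.542 CPM to 0.324, 0.485 and 0.187 CPM (log2 fold change -1.63 ± 0.333, adjusted p = 0.0151). It was the only called gene of 13 listed as microglia-restricted, against 2.46% of all genes called. Of the 13, 10 had negative fold changes, and the median was -0.28. Over the alternatives 0 to 4 of the 13 were called lower and 0 to 1 higher, and over single-library omissions 0 to 2 were called lower. Those 13 genes summed to 1255 to 1416 CPM in PLX 1x, 1156 to 1433 CPM in PLX 3x CD0 and 2161 to 2421 CPM in untreated forebrain. The list's name may therefore not hold for every member. Cd53, a leukocyte tetraspanin, fell from 0.741, 1.20 and 0.345 CPM to 0.203, 0.272 and 0.205 CPM (log2 fold change -1.75 ± 0.384, adjusted p = 0.0202). In both, every PLX 3x CD0 library lay below every PLX 1x library, at levels far below the 15.4 to 21.3 CPM and 6.82 to 11.6 CPM of untreated forebrain. Siglech missed the threshold in 4 of 6 omissions of a single library (adjusted p up to 0.077) and Cd53 in 5 of 6 (up to 0.119). Both calls were also lost in the fit on the 6 libraries alone, with or without the length and GC offset. The averages over all 15 libraries, log2 CPM 2.79 for Siglech and 1.86 for Cd53, were raised by the untreated, PLX 3x CD30 and IR-BMT groups.

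Of the 48 gene lists examined, the clock genes held the most calls. Of 24 clock genes tested, 8 were lower in PLX 3x CD0 and 3 were higher, against 0.67% and 1.79% of all genes. In 14 of the 24 the 3 PLX 3x CD0 libraries all lay below the 3 PLX 1x libraries, and in 3 they all lay above. Over all genes these shares were 11.4% and 13.4%. The 8 lower genes were the circadian repressor Ciart, the period genes Per1 and Per2, the nuclear receptors Nr1d1 and Nr1d2, the helix-loop-helix repressors Bhlhe40 and Bhlhe41, and the output factor Dbp. The 3 higher genes, Arntl, Npas2 and Clock, encode the activators of the loop. The list's median log2 fold change was -0.19, against 0.0067 over all genes.

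The promoters of 6 genes are shown here, because clock genes on opposite arms of the loop moved in opposite directions and because chaperone genes fell with them. They are RefSeq windows on GRCm38.p6, from 250 bases before to 50 after the annotated start, printed 5′ to 3′ on the gene's strand. Of several windows of a gene, the one with the most matches is printed. In Ciart and Bhlhe41 capitals mark the E-box CACGTG. In Per1 they mark an E-box and, further on, a ROR element read on the other strand. In Arntl they mark the ROR element AGGTCA, which lies 31 bases after the annotated start. In Hspa5 and, on the other strand, Creld2 they mark the endoplasmic reticulum stress element, searched as CCAAT and CCACG with 9 bases between them.
Ciart, chr3:95882179-95882478, minus strand: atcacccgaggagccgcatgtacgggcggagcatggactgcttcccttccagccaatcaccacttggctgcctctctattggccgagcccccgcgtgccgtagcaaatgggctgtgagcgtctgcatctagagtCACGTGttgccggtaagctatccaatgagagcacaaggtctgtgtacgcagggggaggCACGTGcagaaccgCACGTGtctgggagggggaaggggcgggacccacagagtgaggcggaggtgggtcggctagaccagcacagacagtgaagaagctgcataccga
Per1, chr11:69098699-69098998, plus strand: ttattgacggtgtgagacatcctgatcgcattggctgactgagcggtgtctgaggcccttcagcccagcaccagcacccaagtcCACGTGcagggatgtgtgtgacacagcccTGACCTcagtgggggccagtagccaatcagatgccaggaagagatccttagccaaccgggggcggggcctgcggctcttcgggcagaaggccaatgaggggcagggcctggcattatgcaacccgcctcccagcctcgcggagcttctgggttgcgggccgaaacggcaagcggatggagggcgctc
Bhlhe41, chr6:145865371-145865670, minus strand: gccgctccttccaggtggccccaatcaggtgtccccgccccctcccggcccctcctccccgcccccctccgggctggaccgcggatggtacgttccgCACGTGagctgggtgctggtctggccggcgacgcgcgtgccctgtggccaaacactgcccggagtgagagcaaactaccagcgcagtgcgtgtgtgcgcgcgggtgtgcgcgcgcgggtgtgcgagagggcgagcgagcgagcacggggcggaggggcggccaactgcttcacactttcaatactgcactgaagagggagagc
Arntl, chr7:113207261-113207560, plus strand: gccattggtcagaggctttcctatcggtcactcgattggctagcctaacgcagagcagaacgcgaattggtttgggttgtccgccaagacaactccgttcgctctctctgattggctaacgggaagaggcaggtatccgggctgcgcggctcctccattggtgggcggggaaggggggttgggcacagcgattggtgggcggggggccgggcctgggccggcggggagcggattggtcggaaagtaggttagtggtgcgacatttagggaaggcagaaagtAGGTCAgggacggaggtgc
Hspa5, chr2:34771840-34772139, plus strand: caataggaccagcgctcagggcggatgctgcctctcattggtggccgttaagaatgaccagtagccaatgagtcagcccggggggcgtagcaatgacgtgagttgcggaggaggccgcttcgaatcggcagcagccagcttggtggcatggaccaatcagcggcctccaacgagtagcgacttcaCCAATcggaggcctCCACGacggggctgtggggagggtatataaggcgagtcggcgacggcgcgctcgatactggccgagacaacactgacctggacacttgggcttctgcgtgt
Creld2, chr15:88819396-88819695, plus strand: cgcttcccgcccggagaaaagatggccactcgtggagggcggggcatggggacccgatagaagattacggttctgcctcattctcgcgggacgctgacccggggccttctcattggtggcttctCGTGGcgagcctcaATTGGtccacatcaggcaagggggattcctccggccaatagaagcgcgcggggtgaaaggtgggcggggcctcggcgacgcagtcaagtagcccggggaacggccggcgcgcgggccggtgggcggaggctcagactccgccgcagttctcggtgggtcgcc

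Each motif was searched on both strands and none of the marked matches overlap one another. Of 24 clock genes, 19 had a RefSeq window. The E-box occurred in 5 of the 19, Bhlhe41, Ciart, Cry1, Per1 and Tef, against 8.09% of all 27025 genes with a window, and Ciart held 3 copies, at 116, 58 and 44 bases before its start. The ROR element occurred in Arntl, Clock, Nfil3, Nr1d2 and Per1, also 5 of 19, against 18.1% of all genes. The D-box TTATGTAA occurred in Per3 only, 1 of the 19, against 1.11% of all genes. The windows of the called genes Dbp, Nr1d1 and Npas2 held none of these motifs, and that of Nr1d2 held no E-box. Per2 and Bhlhe40, also called, had no window, while Cry1 and Tef were not called. These are matches of letters in a window and do not show that a factor bound there.

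Ciart (chr3 of mm10, gene ENSMUSG00000038550) showed the steepest fall of the clock genes. Its level was 34.8, 43.9 and 40.1 CPM in PLX 1x and 14.0, 14.0 and 15.0 CPM in PLX 3x CD0, with no overlap (log2 fold change -1.47 ± 0.142, adjusted p = 6.67e-05). The levels in the remaining groups were 11.0 to 12.6 in untreated, 17.3 to 27.7 in PLX 3x CD30 and 13.5 to 17.3 in IR-BMT forebrain, so PLX 1x held the highest. Per2, a core repressor of the loop, was at 78.2, 80.7 and 101 CPM in PLX 1x and 42.4, 44.8 and 47.5 CPM in PLX 3x CD0 (log2 fold change -0.94 ± 0.129, adjusted p = 0.00202). The untreated libraries, at 45.1 to 46.5 CPM, lay within the range of PLX 3x CD0 and below that of PLX 1x.

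Nr1d2 and Nr1d1, the paired nuclear receptors that repress Arntl, fell less steeply but with a narrow spread. Nr1d2 stood at 143, 142 and 142 CPM in PLX 1x and 95.8, 97.7 and 105 CPM in PLX 3x CD0 (log2 fold change -0.52 ± 0.0656, adjusted p = 3.10e-04). Nr1d1 stood at 143, 151 and 153 CPM in PLX 1x and 120.5, 112 and 112 CPM in PLX 3x CD0 (log2 fold change -0.38 ± 0.0720, adjusted p = 0.00833). For neither gene did the groups overlap, and for both the untreated libraries were lower still, at 80.3 to 89.9 CPM and 99.3 to 105 CPM. Ciart, Per2, Nr1d2 and Nr1d1 passed the test under every one of the 17 alternative settings.

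Per1, an immediate-response member of the period family, was at 51.1, 55.8 and 64.7 CPM in PLX 1x and 30.9, 34.3 and 34.3 CPM in PLX 3x CD0 (log2 fold change -0.78 ± 0.146, adjusted p = 0.0136). Dbp, a transcription factor on the output side of the clock, was at 46.1, 52.3 and 51.9 CPM in PLX 1x and 25.9, 30.5 and 32.5 CPM in PLX 3x CD0 (log2 fold change -0.76 ± 0.153, adjusted p = 0.0201). The groups did not overlap in either. Per1 missed the threshold without PLX 1x replicate 2 (0.0548), PLX 1x replicate 3 (0.0542) or PLX 3x CD0 replicate 1 (0.0633), and Dbp without PLX 1x replicate 2 (0.0873), PLX 1x replicate 3 (0.0791), PLX 3x CD0 replicate 1 (0.0834) or PLX 3x CD0 replicate 2 (0.0704), with the adjusted p in brackets. Bhlhe41 was -0.51 and Bhlhe40 -0.75 on the log2 scale (adjusted p = 0.0174 and 0.0353), and these calls were lost in 3 and 5 of 6 single-library omissions.

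The activators moved the other way. Arntl, the partner of CLOCK, rose from 38.1, 38.5 and 49.5 CPM to 65.1, 52.8 and 61.8 CPM (log2 fold change 0.51 ± 0.0934, adjusted p = 0.00709). Npas2, which can stand in for CLOCK, rose from 73.7, 67.3 and 77.0 CPM to 100.3, 88.9 and 104 CPM (log2 fold change 0.43 ± 0.0746, adjusted p = 0.00476). Every PLX 3x CD0 library exceeded every PLX 1x library in both. Clock itself differed by 0.27 (adjusted p = 0.0356), a call lost in all 6 single-library omissions and with the length and GC offset. Arntl missed the threshold without PLX 1x replicate 2 (0.0568), with the 6 libraries alone, and with those 6 and that offset (adjusted p up to 0.185). Npas2 missed it with those 6 and that offset (0.0524). In the fit on all 15 libraries with that offset, 2 clock genes were higher and 9 lower. The labels give no time of day, so the hour of collection and the treatment cannot be told apart.

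Among the clock genes that did not pass, Cry1, a cryptochrome repressor, was at 48.1, 48.6 and 56.4 CPM in PLX 1x and 33.8, 42.0 and 42.3 CPM in PLX 3x CD0 (log2 fold change -0.37 ± 0.108, adjusted p = 0.0822). Per3 was at -0.20 on the log2 scale (adjusted p = 0.180) and Tef, a relative of Dbp, at -0.17 (adjusted p = 0.123). In all 3 genes the libraries of the groups did not overlap, a pattern found in 11.4% of all genes. Across single-library omissions the list kept 4 to 8 lower calls and 1 to 2 higher calls.

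**Figure D2:**
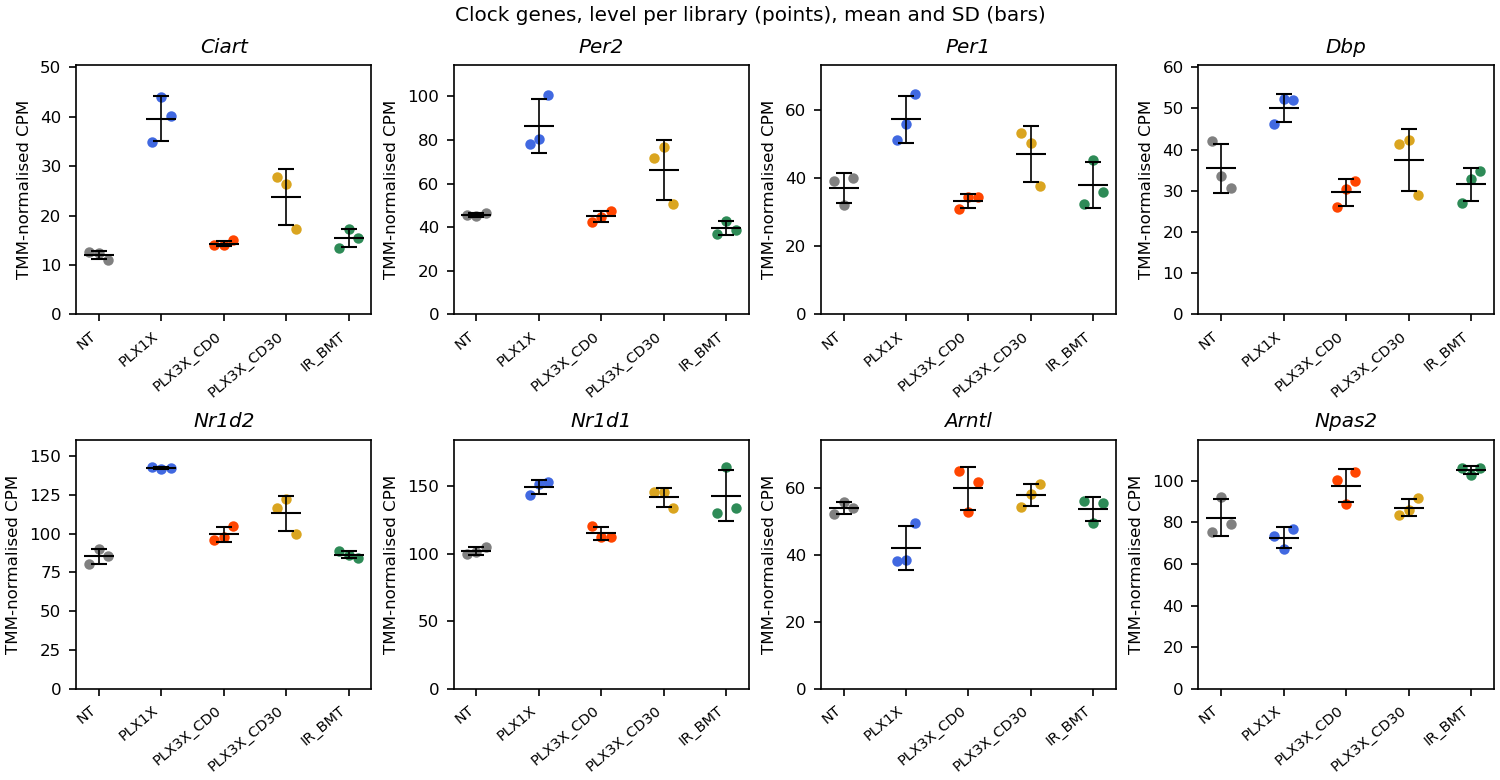
TMM-normalised CPM of 8 clock genes in each library of the 5 groups (points), with the group mean and SD (bars, 3 libraries each) and axes starting at 0. Ciart is at 34.8 to 43.9 CPM in PLX1X and 14.0 to 15.0 CPM in PLX3X_CD0, while Arntl and Npas2 are higher in PLX3X_CD0 than in PLX1X.

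Genes induced by glucocorticoids and stress were in part lower in PLX 3x CD0. Of 18 tested, 4 were lower and none higher, against 0.67% of all genes lower. Tsc22d3, a glucocorticoid-induced leucine zipper, was at 113, 109.7 and 118 CPM in PLX 1x and 74.5, 81.3 and 76.2 CPM in PLX 3x CD0 (log2 fold change -0.55 ± 0.0578, adjusted p = 6.23e-05). The groups did not overlap, the untreated libraries lay at 76.5 to 88.0 CPM, and the call held under all 17 alternatives. Errfi1, an inhibitor of epidermal growth factor receptor signalling, was at 34.5, 35.2 and 34.8 CPM in PLX 1x and 25.1, 29.0 and 27.2 CPM in PLX 3x CD0 (log2 fold change -0.36 ± 0.0693, adjusted p = 0.00836), and it missed the threshold without PLX 3x CD0 replicate 1 (0.0544). Sgk1, a kinase induced by glucocorticoids, differed by -0.58 and Klf9, a glucocorticoid-responsive zinc finger factor, by -0.26 (adjusted p = 0.0356 and 0.0331), and each of these calls was lost in 5 of 6 omissions. Fkbp5, a co-chaperone of the glucocorticoid receptor, was at 58.2, 62.7 and 54.8 CPM in PLX 1x and 38.4, 52.7 and 53.9 CPM in PLX 3x CD0, and did not pass (log2 fold change -0.28 ± 0.119, adjusted p = 0.274). The list's median was -0.04, and it was -0.16 without PLX 3x CD0 replicate 2 and -0.14 with the length and GC offset.

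Immediate early genes, which neurons switch on within minutes of activity, had mostly negative fold changes. Of 20 tested, 2 were lower and none higher, against 0.67% of all genes lower. DESeq2 called 7 and edgeR without the filter on low counts 10, in settings with 1065 and 1186 calls in all, against 536 here. In 10 of the 20 every PLX 3x CD0 library lay below every PLX 1x library, against 11.4% of all genes, and the median log2 fold change was -0.38. Nr4a3, an orphan nuclear receptor, was at 9.04, 9.35 and 11.3 CPM in PLX 1x and 5.09, 4.50 and 4.85 CPM in PLX 3x CD0 (log2 fold change -1.04 ± 0.182, adjusted p = 0.00541). Its groups were well apart and the call held under all 17 alternatives. The remaining groups held 5.45 to 10.2 in untreated, 6.81 to 10.2 in PLX 3x CD30 and 7.08 to 8.29 in IR-BMT forebrain, so the untreated libraries spread across most of that gap.

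Egr1, a zinc finger factor, was at 712, 875 and 1101 CPM in PLX 1x and 486, 459 and 562 CPM in PLX 3x CD0 (log2 fold change -0.83 ± 0.163, adjusted p = 0.0213), without overlap. It missed the threshold without PLX 1x replicate 2 (0.0731), PLX 1x replicate 3 (0.0542), PLX 3x CD0 replicate 1 (0.0868) or PLX 3x CD0 replicate 2 (0.0922). Fos was at 74.3, 93.9 and 96.0 CPM in PLX 1x and 42.8, 55.6 and 55.9 CPM in PLX 3x CD0 and did not pass (log2 fold change -0.77 ± 0.372, adjusted p = 0.354), although its groups did not overlap either. The untreated libraries alone ranged from 38.4 to 129 CPM for Fos. Egr2, named after its value was seen as the steepest fall of the list, was at 24.2, 38.8 and 48.9 CPM in PLX 1x and 11.8, 10.2 and 14.8 CPM in PLX 3x CD0 and did not pass (log2 fold change -1.60 ± 0.378, adjusted p = 0.0593), but it passed under 4 of the 17 alternatives, DESeq2 among them. PLX 1x replicate 3 had the highest level of its group for Nr4a3, Egr1 and Fos, and without it the list's median was -0.29.

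Part of the chaperone and unfolded protein genes were lower as well. Of 25 tested, 6 were lower and none higher, against 0.67% of all genes lower and 1.79% higher. Fold changes were negative in 24 of 25. In 17 every PLX 3x CD0 library lay below every PLX 1x library, against 11.4% of all genes. DESeq2, with 1065 calls in all against 536 here, called 11 lower. The list's median log2 fold change was -0.21. The 6 were Hspa5, Dnajb1, Herpud1, Creld2, Xbp1 and Atf4. With the length and GC offset 4 remained lower, and single-library omissions left 2 to 4.

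Hspa5, the main chaperone of the endoplasmic reticulum, was at 410.3, 376 and 465 CPM in PLX 1x and 321, 282 and 301 CPM in PLX 3x CD0 (log2 fold change -0.47 ± 0.0778, adjusted p = 0.00316). PLX 3x CD0 was the lower group here relative to untreated forebrain, at 377 to 433 CPM, and the call held under all 17 alternatives. Dnajb1, a co-chaperone of the cytosolic heat shock protein 70, was at 118, 115 and 144 CPM in PLX 1x and 97.1, 89.3 and 93.9 CPM in PLX 3x CD0 (log2 fold change -0.43 ± 0.0761, adjusted p = 0.00549). Neither gene's groups overlapped. Herpud1, which takes part in degrading misfolded proteins, was at 87.4, 82.8 and 102 CPM in PLX 1x and 71.1, 63.5 and 69.2 CPM in PLX 3x CD0 (log2 fold change -0.41 ± 0.0826, adjusted p = 0.0110), and it missed the threshold without PLX 1x replicate 3 (0.0607) or PLX 3x CD0 replicate 2 (0.0523). Creld2, a secreted chaperone-like protein, differed by -0.35, Xbp1, a transcription factor of the unfolded protein response, by -0.38, and Atf4, the factor of the integrated stress response, by -0.31. Their adjusted p-values of 0.0162, 0.0310 and 0.0458 rose above the threshold in 5, 6 and 5 of 6 omissions.

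The stress element printed above for Hspa5 and Creld2 occurred in 4 of 21 chaperone genes with a RefSeq window, Calr, Creld2, Hsp90b1 and Hspa5, against 0.137% of all genes. Calr and Hsp90b1 did not pass the test (-0.10 and -0.14, adjusted p = 0.475 and 0.408). The heat shock element GAANNTTC occurred in 7 of the 21, against 9.04% of all genes, and none of the 7 was among the called genes. Among immediate early genes the cyclic AMP response element TGACGTCA occurred in 2 of 15, Btg2 and Dusp1, against 2.03% of all genes. The stress element was chosen after the values of these genes had been seen.

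**Figure D3:**
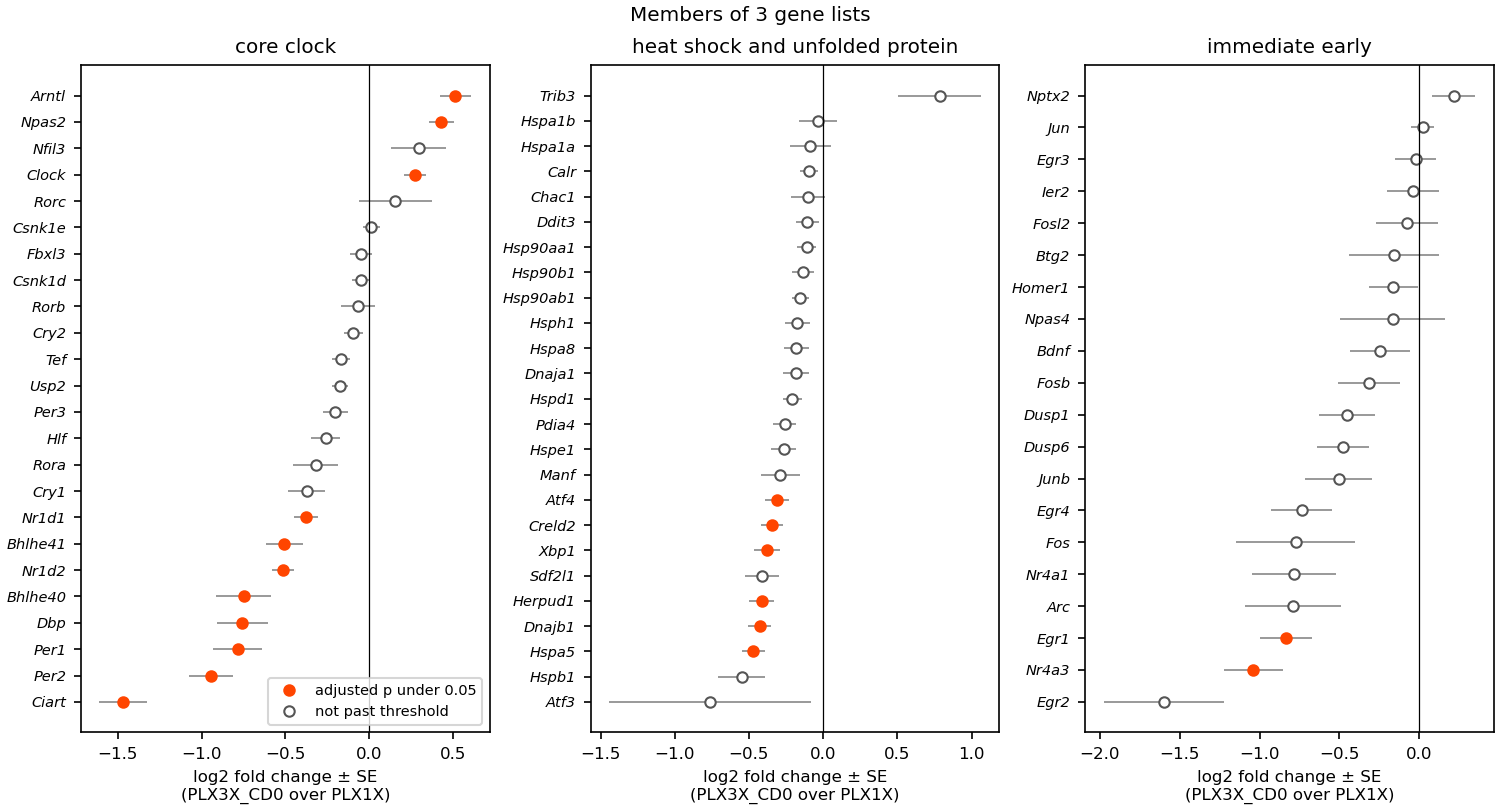
Log2 fold change of PLX3X_CD0 over PLX1X, with its standard error, for each tested member of the clock, chaperone and immediate early lists. Filled orange points passed at an adjusted p under 0.05: 8 lower and 3 higher clock genes, 6 lower chaperone genes and 2 lower immediate early genes.

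Part of the genes of the basement membrane and matrix were higher in PLX 3x CD0. Of 21 tested, 4 were higher and none lower, against 1.79% of all genes higher and 0.67% lower. In 9 every PLX 3x CD0 library lay above every PLX 1x library, against 13.4% of all genes. Col4a2, a chain of type IV collagen, was at 27.7, 31.1 and 27.8 CPM in PLX 1x and 48.6, 48.1 and 46.3 CPM in PLX 3x CD0 (log2 fold change 0.72 ± 0.0711, adjusted p = 3.69e-05). Col4a1, its partner chain, was at 24.2, 23.7 and 26.5 CPM in PLX 1x and 37.3, 40.4 and 36.3 CPM in PLX 3x CD0 (log2 fold change 0.62 ± 0.0826, adjusted p = 5.34e-04). No library overlapped in either gene. Both lay below untreated forebrain in PLX 1x and near it in PLX 3x CD0: the untreated libraries held 42.6 to 48.0 CPM of Col4a2 and 32.2 to 40.3 CPM of Col4a1.

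The 2 collagen genes overlap at their starts and are read in opposite directions from starts 21 bases apart on chromosome 8, and the counting is not stated to use strand. Their longest annotated transcripts have 6450 bases for Col4a2 and 6615 bases for Col4a1, and a sharing of reads was not tested. The window of Col4a2, shown because it holds both starts, has its single CCAAT in capitals, 32 bases before the Col4a2 start. These letters, searched after the values were seen, occurred in 6 of 14 matrix genes and in 41.1% of all genes.
Col4a2, chr8:11312555-11312854, plus strand: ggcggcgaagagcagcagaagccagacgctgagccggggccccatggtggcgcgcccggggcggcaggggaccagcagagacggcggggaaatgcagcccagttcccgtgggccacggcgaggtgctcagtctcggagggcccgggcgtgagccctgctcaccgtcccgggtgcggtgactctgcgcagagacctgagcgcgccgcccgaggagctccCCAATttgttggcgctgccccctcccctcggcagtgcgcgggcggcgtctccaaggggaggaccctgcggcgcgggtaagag

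Fbn1, which encodes the microfibril protein fibrillin-1, was at 4.69, 4.50 and 3.30 CPM in PLX 1x and 9.69, 7.78 and 8.51 CPM in PLX 3x CD0 (log2 fold change 1.05 ± 0.192, adjusted p = 0.00629). The pattern across groups differed from that of the collagens, with 3.28 to 5.23 in untreated, 3.34 to 5.75 in PLX 3x CD30 and 8.32 to 9.93 in IR-BMT forebrain. Here PLX 1x lay with untreated forebrain and PLX 3x CD0 above it. Lama5, a laminin chain of vascular basement membrane, had the same order, with 4.72, 5.43 and 4.68 CPM in PLX 1x and 8.83, 9.04 and 6.96 CPM in PLX 3x CD0 (log2 fold change 0.74 ± 0.142, adjusted p = 0.00829) and 3.67 to 5.03 CPM in untreated forebrain. The calls of Col4a1, Col4a2 and Fbn1 held under all 17 alternatives, while Lama5 missed the threshold under the length and GC offset (at an adjusted p of 0.0771).

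Vessel genes outside the matrix held few calls. Of 23 genes of the endothelium and blood-brain barrier, 1 was higher and 1 lower, against 1.79% and 0.67% of all genes, so the count is near that of all genes. Cldn5, the claudin of endothelial tight junctions, was at 24.4, 27.5 and 26.4 CPM in PLX 1x and 36.4, 36.5 and 33.6 CPM in PLX 3x CD0 (log2 fold change 0.44 ± 0.0683, adjusted p = 0.00192), without overlap, and its call held under all 17 alternatives. Slc2a1, the glucose transporter of the barrier, was at 101, 109 and 109 CPM in PLX 1x and 88.8, 95.7 and 87.6 CPM in PLX 3x CD0 (log2 fold change -0.23 ± 0.0605, adjusted p = 0.0488), a call lost in 5 of 6 single-library omissions. Piezo1, a mechanically gated ion channel, was among the steepest rises, at 3.54, 3.21 and 3.45 CPM in PLX 1x and 6.77, 5.49 and 6.01 CPM in PLX 3x CD0 (log2 fold change 0.84 ± 0.160, adjusted p = 0.00830). It missed the threshold without PLX 1x replicate 2 (0.0583) and with the length and GC offset plus a replicate block (0.0619). Klf2, a flow-responsive endothelial transcription factor, was among the steepest falls, at 9.56, 11.8 and 17.3 CPM in PLX 1x and 5.73, 6.83 and 6.42 CPM in PLX 3x CD0 (log2 fold change -1.02 ± 0.197, adjusted p = 0.0128). Klf2 missed the threshold without PLX 3x CD0 replicate 1 (0.0650) or PLX 3x CD0 replicate 3 (0.0514), and in the 6 libraries alone with that offset (0.0701).

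**Figure D4:**
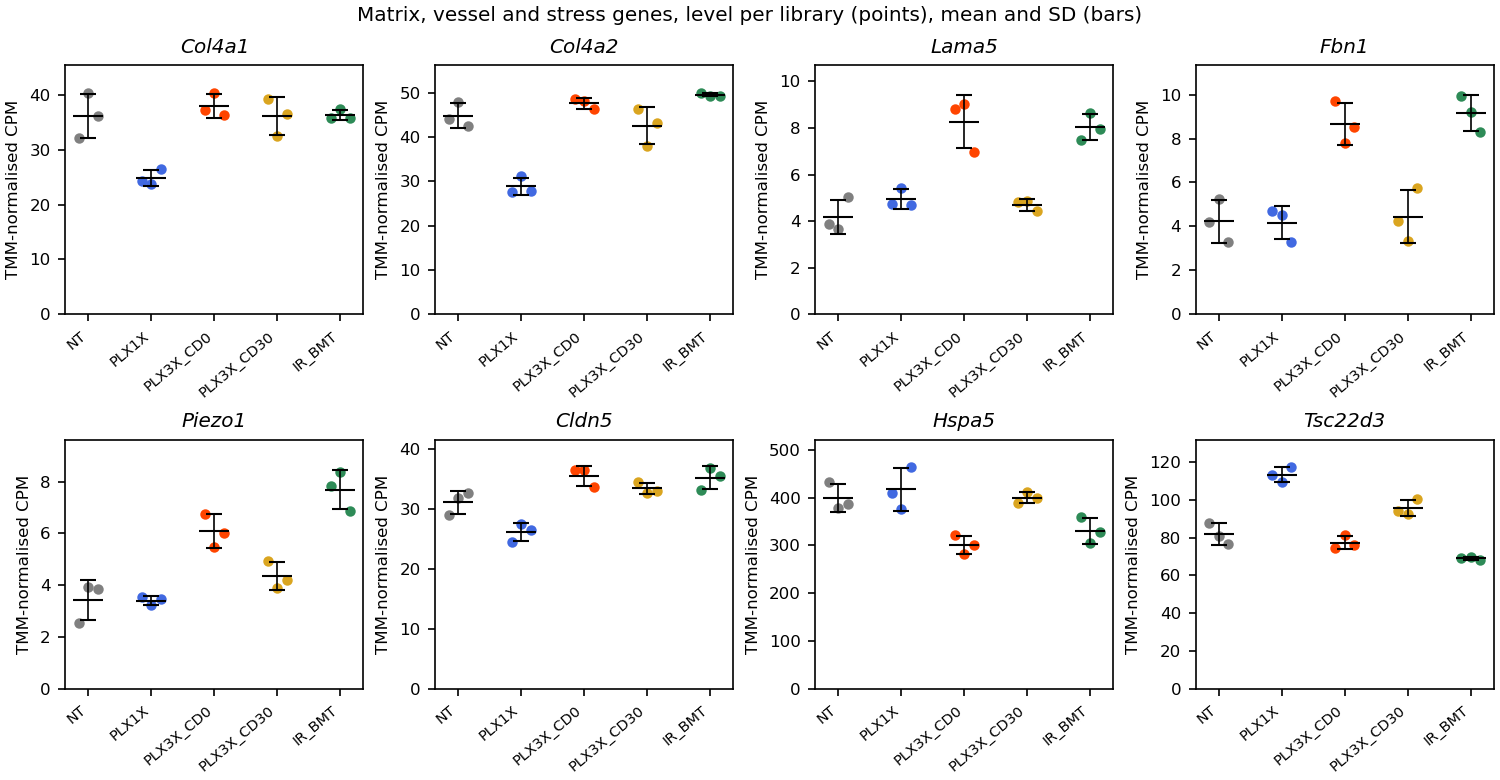
TMM-normalised CPM of 4 matrix genes, Piezo1, Cldn5, Hspa5 and Tsc22d3 in each library of the 5 groups (points), with the group mean and SD (bars, 3 libraries each) and axes starting at 0. Col4a1, Col4a2 and Cldn5 are lowest in PLX1X, whereas Fbn1, Lama5 and Piezo1 are high in PLX3X_CD0 and IR_BMT.

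Other genes were named for the size of their change. Tor4a, a torsin-family ATPase, was at 2.61, 2.75 and 2.93 CPM in PLX 1x and 4.94, 5.45 and 4.93 CPM in PLX 3x CD0 (log2 fold change 0.89 ± 0.160, adjusted p = 0.00584). Crocc, which encodes the ciliary rootlet protein rootletin, was at 37.8, 38.7 and 32.0 CPM in PLX 1x and 61.4, 59.7 and 57.8 CPM in PLX 3x CD0 (log2 fold change 0.72 ± 0.0904, adjusted p = 3.21e-04). Both rose, with the lack of overlap that their choice required, and their calls held under all 17 alternatives. Mthfd1l, an enzyme of mitochondrial one-carbon metabolism, was at 22.7, 23.5 and 26.3 CPM in PLX 1x and 13.8, 14.5 and 14.6 CPM in PLX 3x CD0 (log2 fold change -0.76 ± 0.123, adjusted p = 0.00267), and this fall held under all 17 as well.

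Among called genes averaging a log2 CPM of 1 or more, the steepest rise was that of Erdr1, at 1.22, 1.20 and 0.689 CPM in PLX 1x and 3.14, 4.52 and 2.22 CPM in PLX 3x CD0 (log2 fold change 1.65 ± 0.323, adjusted p = 0.0133), which missed the threshold without PLX 1x replicate 2 (0.0559) or PLX 1x replicate 3 (0.0606); its reads may be shared with near-identical copies, so its level is uncertain. Col24a1 and Col5a3, both fibrillar collagens, rose by 1.15 and 0.82 on the log2 scale (adjusted p = 0.0188 and 0.0264). Cdh24, a cadherin, Leng8, Aass, an enzyme of lysine breakdown, Zgrf1, a DNA helicase, and Csf2ra, a cytokine receptor chain, rose by 0.79, 0.74, 0.72, 0.69 and 0.66. Of these 7 genes after Erdr1, Leng8 alone passed in all 6 omissions of a single library, although it missed the threshold in the fit on the 6 libraries alone (adjusted p = 0.117), and the others missed the threshold in 3 to 6 of them. Gkn3, Coq10b, a factor of coenzyme Q metabolism, Prr5, a subunit of the mTORC2 complex, and Cys1, a ciliary protein, fell by 1.06, 0.74, 0.73 and 0.62, and missed the threshold in 3 to 5 of them.

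Genes of myelin, which oligodendrocytes make, had mostly small negative fold changes. Of 25 myelin genes, 2 were lower, against 0.67% of all genes, and 12 had an unadjusted p under 0.05. DESeq2 (1065 calls in all) called 5, the fit without NT replicate 1 (1005 calls in all) called 8, and each omission of 1 of the 6 libraries left 0. In 15 of the 25 every PLX 3x CD0 library lay below every PLX 1x library, against 11.4% of all genes. The median was -0.16, with 22 negative, and it was -0.08 without PLX 3x CD0 replicate 1. Plekhb1, a pleckstrin homology protein, was among those called, at 370.0, 355 and 365 CPM in PLX 1x and 303, 311 and 317 CPM in PLX 3x CD0 (log2 fold change -0.23 ± 0.0582, adjusted p = 0.0446). Its libraries did not overlap, but the call was lost in all 6 single-library omissions. Mbp, myelin basic protein, was at -0.25 and did not pass (adjusted p = 0.0629), but it passed under 7 of the 17 alternatives, DESeq2 and the length and GC offset among them.

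Bcas1, a marker of newly formed oligodendrocytes, was the called gene of 11 on that list, against 2.46% of all genes called. It was at 88.7, 97.8 and 103 CPM in PLX 1x and 71.5, 68.6 and 73.5 CPM in PLX 3x CD0 (log2 fold change -0.44 ± 0.0894, adjusted p = 0.0138). It missed the threshold without PLX 1x replicate 2 (0.0642), PLX 1x replicate 3 (0.0655) or PLX 3x CD0 replicate 2 (0.0592). Untreated forebrain held more of it than either group, at 135 to 181 CPM. Of 13 genes of oligodendrocyte precursors, 1 was higher, against 1.79% of all genes. It was Cspg4, a proteoglycan that pericytes also express, at 0.35 (adjusted p = 0.0398), a call lost with the length and GC offset and in 5 of 6 omissions. None of 20 astrocyte markers passed by edgeR, where 5 had an unadjusted p under 0.05, and DESeq2 called 1. With the length and GC offset edgeR called 2 lower. Of the 20, 16 were negative and the median was -0.10. Gfap, the astrocyte filament, was at 0.00 (adjusted p = 0.998) and Slc1a2, the main glutamate transporter, at -0.18 (adjusted p = 0.213, and 0.0439 with that offset).

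Lipid genes showed small changes in both directions. Fasn, fatty acid synthase, was at 359.7, 348 and 367 CPM in PLX 1x and 477, 471 and 469.5 CPM in PLX 3x CD0 (log2 fold change 0.40 ± 0.0721, adjusted p = 0.00584). Acaca, which makes the substrate of FASN, was at 43.1, 37.2 and 39.9 CPM in PLX 1x and 49.6, 52.0 and 54.1 CPM in PLX 3x CD0 (log2 fold change 0.37 ± 0.0766, adjusted p = 0.0129). Elovl6, which elongates the product, was at 48.3, 48.7 and 52.2 CPM in PLX 1x and 40.6, 39.5 and 39.5 CPM in PLX 3x CD0 (log2 fold change -0.32 ± 0.0733, adjusted p = 0.0244). The libraries did not overlap in any of these 3. They were the called genes of 20 on the list, against 2.46% of all genes called. The rises of Fasn and Acaca were both lost with the length and GC offset, Acaca was also lost in 3 of 6 omissions, and Elovl6 in all 6. Of 19 genes of cholesterol synthesis only Lss, lanosterol synthase, was higher (0.26, adjusted p = 0.0325, lost in all 6 omissions), against 1.79% of all genes. Hmgcs1, an early enzyme of that pathway, was at 0.13 (adjusted p = 0.481). Apoe, the lipid carrier of astrocytes and microglia, was at 0.01 (adjusted p = 0.957).

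Neuronal lists held few calls, in both directions. Of 24 genes of cortical excitatory layers 1 was called, with 11 fold changes positive and 13 negative. Of 26 presynaptic genes 1 was called, with 19 positive and 7 negative. Both counts are near the 2.46% of all genes called. The length and GC offset moved the medians of these lists from -0.01 to -0.05 and from 0.06 to -0.03. Rasgrf2, an exchange factor of upper cortical layers, was at 126, 120.0 and 133 CPM in PLX 1x and 166, 164 and 179 CPM in PLX 3x CD0 (log2 fold change 0.42 ± 0.0848, adjusted p = 0.0120), and missed the threshold without PLX 1x replicate 1 (0.0560), PLX 1x replicate 2 (0.0835) or PLX 3x CD0 replicate 3 (0.0562). Every PLX 3x CD0 library lay above every PLX 1x library. Unc13a, which primes synaptic vesicles, Slc12a5, the neuronal chloride exporter, and Oprd1, the delta opioid receptor, were higher by 0.40, 0.26 and 0.42 (adjusted p = 0.0149, 0.0194 and 0.0244). These 3 calls were lost with the length and GC offset and in 4 of 6 omissions each. Zbtb20, a transcription factor of hippocampal neurons and astrocytes, was lower, at 87.5, 89.6 and 74.1 CPM in PLX 1x and 64.0, 67.6 and 54.1 CPM in PLX 3x CD0 (log2 fold change -0.44 ± 0.0839, adjusted p = 0.00874), and missed the threshold without PLX 1x replicate 2 (0.0568). Snap25, a synaptic fusion protein, was at 0.02 (adjusted p = 0.949).

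The remaining named calls were spread over other lists. Avp, the vasopressin precursor made in the hypothalamus, was at 4.93, 6.25 and 0.640 CPM in PLX 1x and 0.263, 0.349 and 0.112 CPM in PLX 3x CD0 (log2 fold change -4.02 ± 0.915, adjusted p = 0.0464). Its call was lost in 5 of 6 omissions. Avp was the called gene of 13 hypothalamic markers, against 2.46% of all genes called. Steap4, a metalloreductase on the reactive astrocyte list, was at 0.204, 0.155 and 0.172 CPM in PLX 1x and 0.851, 0.912 and 0.672 CPM in PLX 3x CD0 (log2 fold change 2.17 ± 0.556, adjusted p = 0.0445). Fabp5, a fatty acid-binding protein, was at 82.6, 80.6 and 83.2 CPM in PLX 1x and 64.9, 68.7 and 69.0 CPM in PLX 3x CD0 (log2 fold change -0.28 ± 0.0726, adjusted p = 0.0457). Both calls were lost in all 6 omissions. Of 16 nuclear-retained and splicing genes 2 were called, both higher, against 1.79% of all genes. They were Snhg11, a neuronal long noncoding RNA, and Srsf5, a splicing factor, higher by 0.39 and 0.35 (adjusted p = 0.0264 and 0.0233). These calls were lost in 5 and 4 of 6 omissions.

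**Figure D5:**
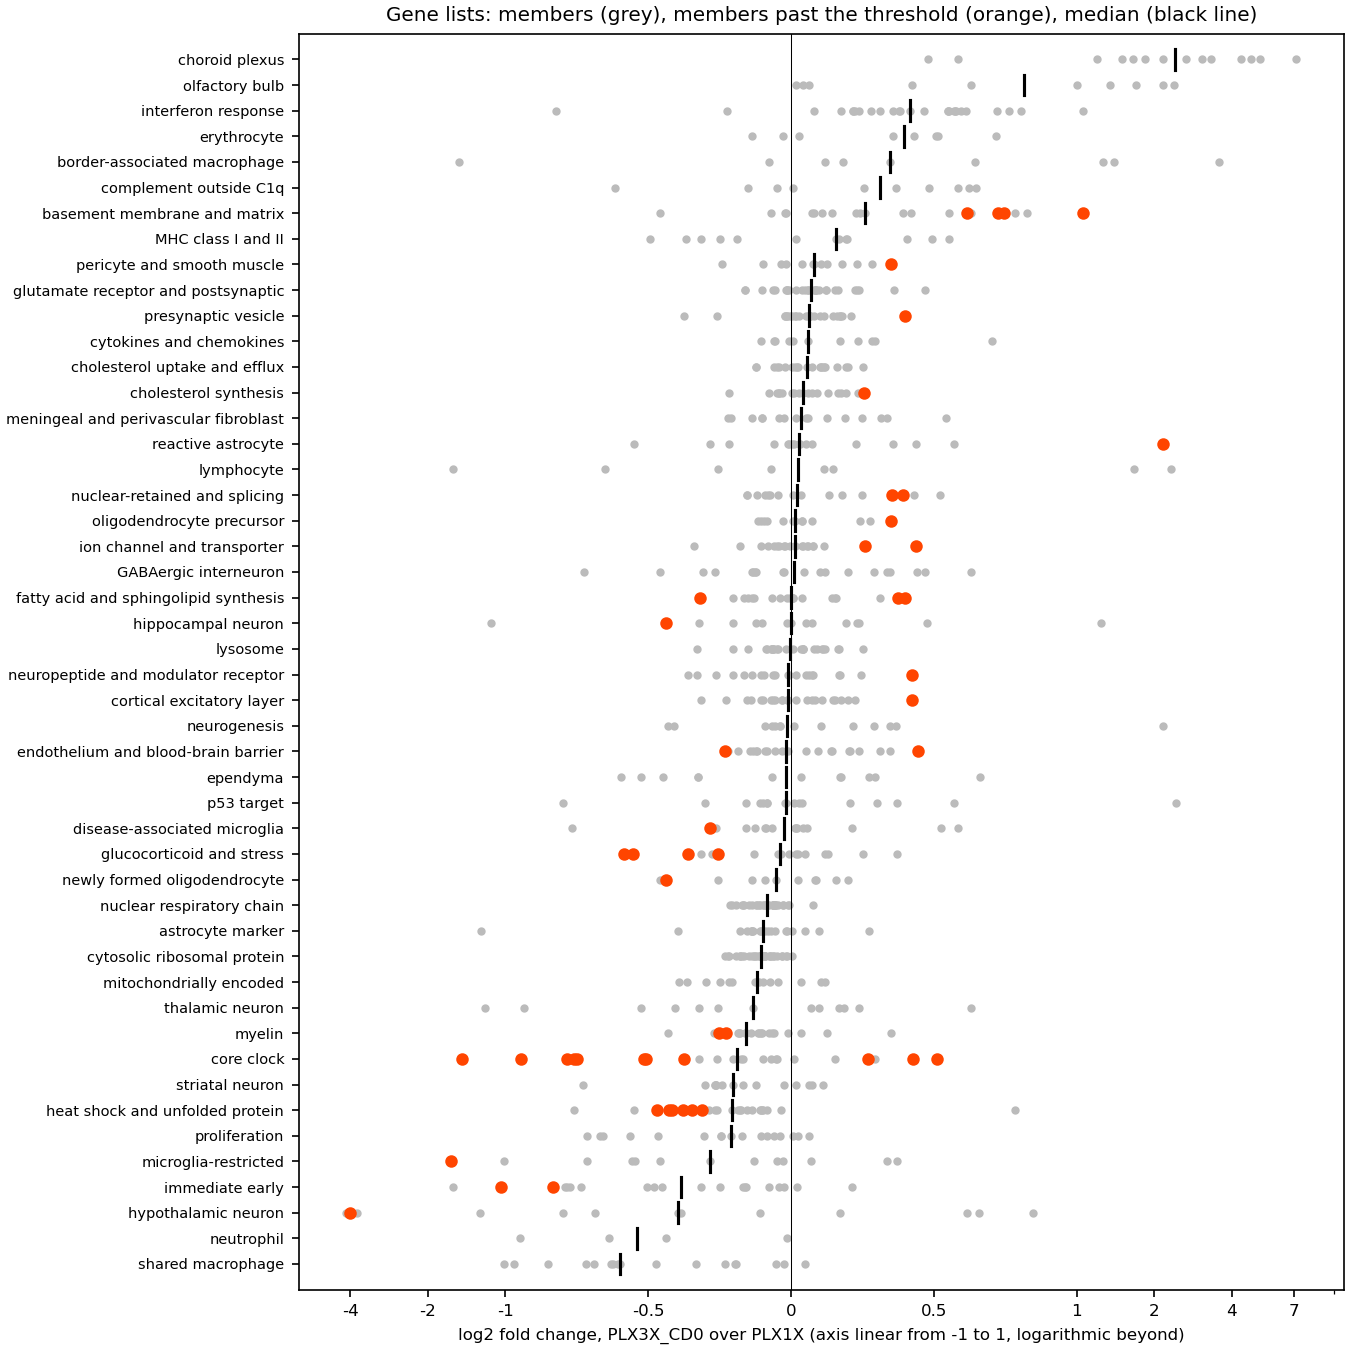
Log2 fold change of PLX3X_CD0 over PLX1X for every tested member of the 48 gene lists, 1 row a list, sorted by median (black line); the axis is linear from -1 to 1 and logarithmic beyond. Orange points passed at an adjusted p under 0.05, and the core clock row holds the most, 11 of 24 genes, while the choroid plexus row lies far to the right with none.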

How the data were processed

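RNA was measured in 15 forebrain libraries, 3 in each of 5 groups, with cDNA from the SMARTer Ultra Low kit and paired reads, per the labels' protocols. The authors deposited whole-number counts per gene, and CPM values that equal count over library total to within 4.99e-07 and were used for that check alone. DRAGEN, DESeq2 and the mm10 build are named, without roles, per the submitters' processing notes; no source used here gives the annotation, the strand setting or the counting unit. Counts from 1 to 4 were even in 70.6% to 74.7% of cases, so the count of a fragment may enter as 2.

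Of 55774 rows, 287 repeated an identifier with the same values and were dropped. edgeR 4.0.16 in R 4.3.3 fitted counts of all 15 libraries, with TMM normalisation, its filter on low counts by group, robust quasi-likelihood dispersions, 1 mean per group and the contrast PLX3X_CD0 minus PLX1X. All groups entered the fit so that they share 1 estimate of the spread. The standard error is the log2 fold change over the square root of the F statistic. Alternatives were DESeq2 1.42.0, its size factors, other filters, the 6 libraries alone, a replicate block, single-library omissions and an offset from loess curves of level on the longest transcript's length and GC content (GENCODE M21) in each library. The fit was tested on simulated data. Those data held no trend with transcript length or GC content and no library rich in a single tissue, so the test does not cover these. Replicates differed by more than counting noise, so none was merged.

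The members, the 48 gene lists (844 genes, 821 tested) and the tests were chosen with earlier results of these data known. Named genes were the 15 largest rises and 15 largest falls among called genes averaging a log2 CPM of 1 or more with no overlap between groups (unnamed models left out), in each list with a call the 6 members or fewer with the lowest adjusted p, and a fixed set of markers; a few genes that meet this rule are not reported here. Calr, Hsp90b1, Cry1, Per3, Tef and Fkbp5 were added to describe their lists. Summed list levels and group ranges use the same TMM-scaled CPM as single genes. Low counts limit the precision of genes under about 1 CPM.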

Additional observations from a re-analysis of the deposited data

How the results depend on the processing

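The counts of called genes (all, higher, lower) were 536, 390 and 146 in the reported fit. DESeq2 gave 1065, 652 and 413, and no filter on low counts gave 1186, 843 and 343. The 6 libraries alone gave 759, 514 and 245. A requirement of at least a 2-fold change left 34, 19 and 15. The length and GC offset gave 283, 103 and 180, and with the replicate block 222, 86 and 136. Chosen after seeing the data, leaving out NT replicate 1, the library with the lowest total, gave 1005, 635 and 370, and the 6 libraries with the offset gave 248, 89 and 159. Single omissions of the 6 libraries gave 150 to 289, 106 to 227 and 44 to 66. Size factors of DESeq2 (505 calls) and a stricter filter (593 calls) stayed within 1.5 times. The share of higher calls was 36.4% with the offset, and 61.2% to 79.2% in the fits without an offset.

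The labels give the replicate numbers no further meaning. Same-number libraries correlated at -0.054, 0.0043 and 0.096 in their deviations from the group means, and not every library correlated best with its own number. With 3 libraries a group, these values cannot decide whether the numbers pair libraries. The replicate block gave 454, 339 and 115 calls, and with the 6 libraries alone 653, 443 and 210.

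Of 79 named genes, 66 were called, and 15 of these passed under all 17 alternatives, among them Fbn1, Tor4a, Col4a2, Crocc, Ciart, Nr4a3, Per2, Mthfd1l, Cldn5, Col4a1, Nr1d2, Nr1d1, Tsc22d3 and Hspa5. Fitting the 6 libraries alone removed the calls of Arntl, Avp, Bhlhe40, Cd53, Col24a1, Egr1, Gkn3, Leng8, Sgk1, Siglech, Snhg11 and Srsf5. No named gene changed sign while past the threshold. Of the 13 not called, 7 were called under none. Over the alternatives, the lower calls ran from 4 to 11 for the clock list, 2 to 11 for chaperones, 1 to 10 for immediate early genes, 1 to 5 for glucocorticoid genes and 0 to 8 for myelin, and the higher calls of the matrix list from 3 to 9.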

Other observations

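Genes of ribosomes and of energy metabolism had small negative fold changes that did not pass the test. None of 33 cytosolic ribosomal protein genes passed by edgeR, where 8 had an unadjusted p under 0.05, and DESeq2 called 1. Of these 33, 32 were negative, with a median log2 fold change of -0.10, and in 16 every PLX 3x CD0 library lay below every PLX 1x library, against 11.4% of all genes. None of 33 nuclear-encoded respiratory chain genes passed by edgeR either, with 7 at an unadjusted p under 0.05 and 1 called by DESeq2. Again 32 of 33 were negative, with a median of -0.09, and in 19 the libraries lay fully below. With the length and GC offset the medians were -0.11 for the ribosomal and -0.08 for the respiratory chain genes, and no member was called.

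Interferon response genes, which mark antiviral signalling, were positive in 25 of 27, with no call by edgeR, 1 by DESeq2 and 4 by edgeR without the filter on low counts. Ifit3, an antiviral effector, was at 12.1, 13.8 and 12.6 CPM in PLX 1x and 10.8, 29.5 and 11.0 CPM in PLX 3x CD0 (log2 fold change 0.42 ± 0.466, adjusted p = 0.738), so PLX 3x CD0 replicate 2 alone stood high, and 1 untreated library reached 34.1 CPM. Cdhr1, a cadherin of olfactory bulb output neurons, was at 25.5, 16.8 and 14.2 CPM in PLX 1x and 10.1, 107 and 27.2 CPM in PLX 3x CD0 (log2 fold change 1.35 ± 1.13, adjusted p = 0.634), again with replicate 2 alone high. Striatal neuron genes had a median of -0.20 over 15 genes, with no call by edgeR, none at an unadjusted p under 0.05 and none by DESeq2. Without the filter on low counts, a setting with 1186 calls in all, edgeR called 7 lower.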
